A study of Mus musculus with 2 samples.

Results

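Stellate cell-rich spots of mouse liver sections were examined by spatial transcriptomics (ST), a method that counts RNA in small spots laid out under a tissue section. A spot can hold several cells of different types, so these spots are regions of liver and not isolated cells. For each spot, the unique molecular identifiers (UMIs, which tag single captured probe molecules) of Reln, Dcn and Colec11 were summed and divided by all UMIs of the spot. Members were chosen by this score as the top 10% of the kept spots of each library, and kept spots had at most 50000 UMIs and from 100 to 7000 detected genes. This gave 214 of 2140 kept spots in the AEG-1DMAC library and 254 of 2540 in the AEG-1fl/fl library, which is 468 of 4680 kept spots and of 4692 deposited spots. The other 1926 and 2286 kept spots, called remaining spots here, served as the reference of the same section.

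The study asked how the loss of AEG-1 (Mtdh) from myeloid cells affects the liver. AEG-1fl/fl mice carry floxed alleles of the gene, and in AEG-1DMAC littermates these alleles were recombined by Cre driven from the Lyz2 promoter, which is active in macrophages, monocytes and neutrophils, so that stellate cells are not the targeted cells. Each genotype had 1 formalin-fixed, paraffin-embedded section, and both sections lay on the same slide. The labels give livers of mice 27 weeks old fed HF/HSD, a high-fat, high-sugar diet, from 7 weeks of age, whereas the methods of the study place the ST sections with mice on control diet. The diet is therefore not settled, but it is the same for both libraries in either source. With 1 library per genotype no test between mice was possible. Every interval below is a 95% interval that covers counting error, and variation among mice, sections or neighbouring spots is not in it. The intervals are exact, except those on differences of genotype ratios, which are approximate.

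Hepatic stellate cells are the pericytes of the liver. They lie in the space of Disse between hepatocytes and the sinusoidal endothelium, store vitamin A as retinyl esters, and secrete growth factors and matrix. When the liver is injured they can become myofibroblast-like cells that make fibrillar collagen and contractile proteins. Portal fibroblasts and the smooth muscle of vessels are separate mesenchymal cells that share part of this programme, and Dcn is made by fibroblasts as well as by stellate cells. Reln encodes reelin, a secreted glycoprotein (mm10 coordinates chr5:21884454-22344702, minus strand). Dcn encodes decorin, a small proteoglycan that binds collagen (chr10:97479609-97518143, plus strand), and Colec11 encodes a collectin, a soluble sugar-binding protein (chr12:28594173-28623377, minus strand).

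The score itself chose the members and is given only as a description. In the AEG-1DMAC library the median member had 436 score counts per 1000000 UMIs (CPM) and the median remaining spot 155. The corresponding values in the AEG-1fl/fl library were 466 and 174. At the boundary, the lowest member and the next spot had 373.34 and 373.20 CPM in AEG-1DMAC and 390.29 and 389.56 CPM in AEG-1fl/fl, so the members are the upper end of a continuous range. The score rested on few molecules: a median of 9 UMIs per member in AEG-1DMAC (range 4 to 17) and of 8 in AEG-1fl/fl (range 3 to 17), against 3 in the remaining spots of either library. All 3 genes were detected in 165 and 202 members, and 1 gene alone carried the score in 3 and 6. Dcn gave 47.1% of the members' score UMIs in AEG-1DMAC and 40.6% in AEG-1fl/fl. Members were somewhat shallower than the remaining spots, with a median of 18932 against 21205 UMIs in AEG-1DMAC and 16151 against 18678 in AEG-1fl/fl. Their summed UMIs were 4104342 and 4244807, so that 10 CPM in members stood for 41.0 and 42.4 UMIs. The libraries shared 1776 spot barcodes among kept spots and 31 among members. The UMI tables give no spot position, and positions were not used.

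**Figure D1:**
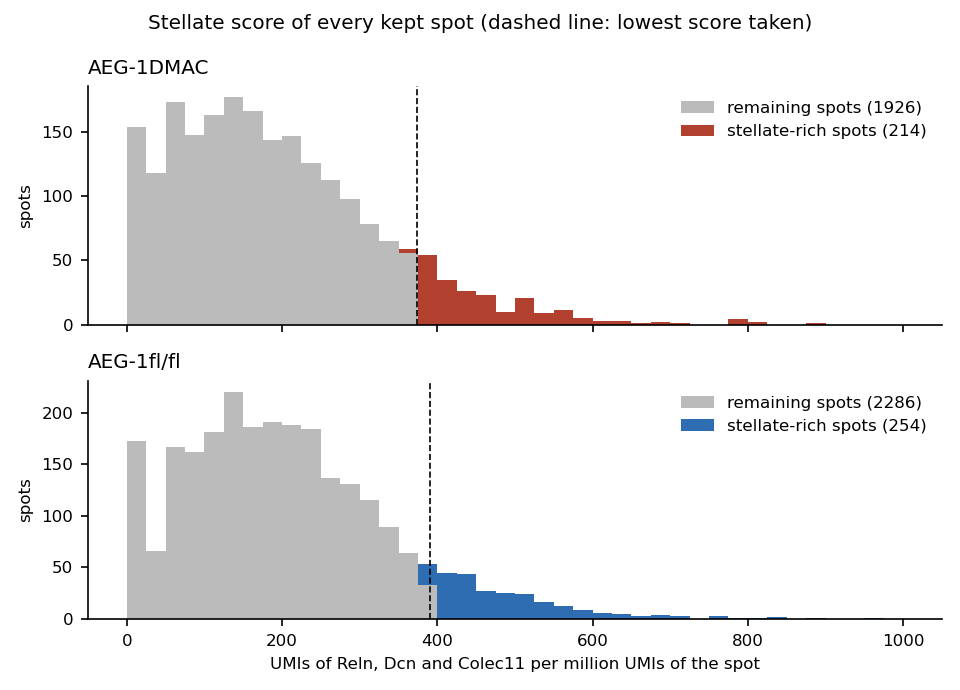
Histograms of the score of every kept spot (Reln, Dcn and Colec11 UMIs in CPM on the x axis, number of spots on the y axis) in each library, with members in colour, remaining spots in grey and a dashed line at the lowest score taken. The scores form 1 continuous range, with the line near 373 CPM in AEG-1DMAC and 390 CPM in AEG-1fl/fl.

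To check the label, each score gene was measured in spots chosen with the other genes of the score. These spots were in part not members. Without Reln, Dcn or Colec11 in turn, 150, 128 and 148 of 214 were members in AEG-1DMAC and 179, 156 and 186 of 254 in AEG-1fl/fl. Reln was then higher in the chosen spots than in the rest by a log2 ratio of 0.63 (0.45 to 0.81) in AEG-1DMAC and 0.57 (0.40 to 0.74) in AEG-1fl/fl. For Dcn the log2 ratios were 0.51 (0.37 to 0.65) and 0.53 (0.40 to 0.67), and for Colec11 they were 0.43 (0.25 to 0.61) and 0.51 (0.36 to 0.66). With the gene inside the score its ratio was between 1.24 and 1.59. The spots differed between these choices, and the part of the gap that came from choosing on the gene itself was not tested.

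The other genes of stellate cells were higher in members of both libraries. Of 26 such genes, 25 reached 1 CPM in each library, and 25 in AEG-1DMAC and 24 in AEG-1fl/fl had a ratio above the median of all genes. Here a gene was called when its mean level was at least 10 CPM, its ratio was at least 1.2-fold from the all-gene median and its interval lay on the same side. Calls were made for 15 of 17 testable stellate genes in AEG-1DMAC and 12 of 17 in AEG-1fl/fl, all higher, whereas over all genes 5.59% and 5.05% were called higher and 2.3% and 2.89% lower. Summed over the list, members held 1266 CPM against 867 in the remaining spots of AEG-1DMAC (log2 ratio 0.55, 0.50 to 0.59). In AEG-1fl/fl they held 1453 against 1033 CPM (0.49, 0.45 to 0.53). These differences were spread over the spots: 84.6% of AEG-1DMAC members (79.0% to 89.1%) and 80.7% of AEG-1fl/fl members (75.3% to 85.4%) lay above the median remaining spot. Along the score, the same list fell from 1266 CPM in the top of 10 equal bins of AEG-1DMAC spots to 623 CPM in the bottom bin, and from 1453 to 849 CPM in AEG-1fl/fl. In a mixed spot, fewer stellate cells and less stellate RNA per cell cannot be told apart.

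**Figure D2:**
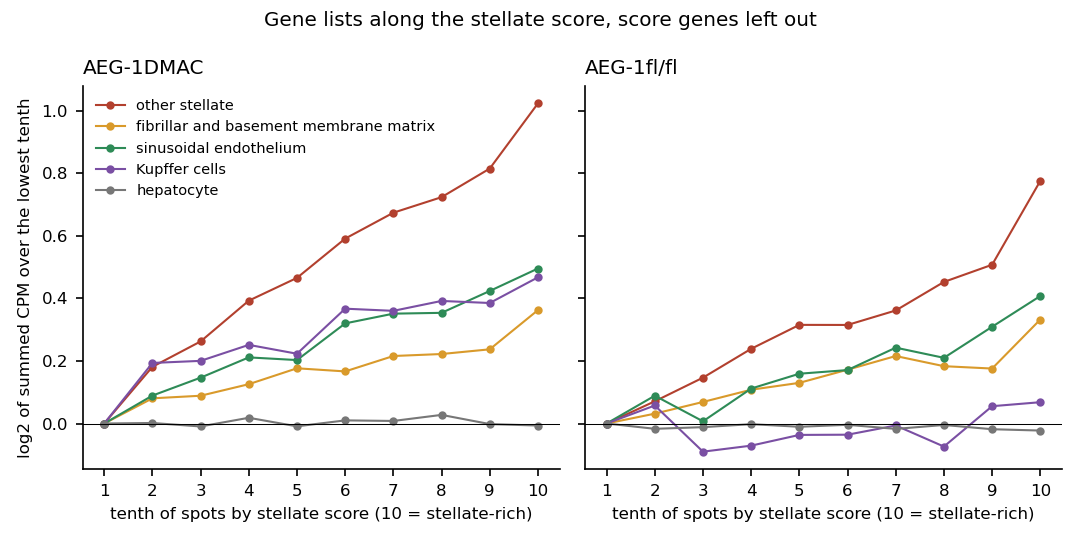
Summed level of 5 gene lists in 10 equal bins of kept spots ordered by the score (x axis, 10 being the members), as log2 of the CPM over that of the lowest bin (y axis), in each library. The line of the other stellate genes ends at 1266 CPM in the top bin from 623 CPM in the lowest in AEG-1DMAC, and at 1453 from 849 CPM in AEG-1fl/fl, while that of hepatocyte genes stays near 0.

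Ecm1, a secreted extracellular matrix protein (chr3:95734147-95739569), was among the most evenly raised members of the list. It had 313 CPM in members and 193 CPM in remaining spots of AEG-1DMAC (log2 ratio 0.70, 0.62 to 0.79), and 294 and 177 CPM in AEG-1fl/fl (0.73, 0.65 to 0.82). Hgf, the hepatocyte growth factor that stellate cells supply to hepatocytes (chr5:16553495-16620152), had 34.1 and 21.6 CPM in AEG-1DMAC (0.66, 0.39 to 0.92) and 31.1 and 19.5 CPM in AEG-1fl/fl (0.67, 0.40 to 0.94). The extracellular superoxide dismutase Sod3 (chr5:52363791-52371418) had 111 and 66.1 CPM in AEG-1DMAC (0.75) and 180 and 110 CPM in AEG-1fl/fl (0.70). In both libraries these genes were higher in members by about the same ratio.

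Pericyte and ligand genes were higher as well. Rgs5, a pericyte regulator of G protein signalling (chr1:169655501-169695813), had 35.1 against 24.5 CPM in AEG-1DMAC (log2 ratio 0.52, 0.26 to 0.77) and 68.6 against 32.5 CPM in AEG-1fl/fl (1.08, 0.89 to 1.26). Its ratios were 0.36 (0.09 to 0.62) in AEG-1DMAC and 0.24 (0.01 to 0.46) in AEG-1fl/fl in spots chosen without Dcn. Abcc9, a subunit of potassium channels in pericytes, had 41.7 against 25.2 CPM (0.72) and 72.3 against 40.1 CPM (0.85). Des, the intermediate filament desmin, had ratios of 0.99 and 0.90, and Gdf2, the ligand BMP9 made by stellate cells, had ratios of 0.69 and 0.53. The stellate transcription factor Hand2 had ratios of 0.49 and 0.84. By contrast, Colec10 (0.03 and -0.04) and Steap4 (0.07 and 0.21) were not called in either library, and the chemokine Cxcl12 was called in AEG-1DMAC (0.41) and not in AEG-1fl/fl (0.14).

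The retinoid list showed less of a difference. Lrat, the enzyme that esterifies retinol for storage, was called higher in both libraries, with 22.7 against 13.9 CPM in AEG-1DMAC (log2 ratio 0.70, 0.37 to 1.02) and 19.6 against 14.3 CPM in AEG-1fl/fl (0.45, 0.11 to 0.78). Of 9 testable retinoid genes, 2 and 1 were called higher, against 5.59% and 5.05% of all genes, and the summed list differed by 0.02 and 0.06. Hepatocytes also express several genes of this list, among them Rbp4, the plasma carrier of retinol, whose ratios were 0.02 and 0.07.

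Over all genes, 136 were called higher in members of both libraries, which is 34.3% of the AEG-1DMAC calls and 39.5% of the AEG-1fl/fl calls. Of 6657 genes testable in both, 2.04% were called higher in both libraries and 0.225% lower in both. The lower calls shared 15 genes, 9.20% and 7.61% of each library's list, and 2 genes were called on opposite sides. The 14 genes ranked highest by the smaller of their ratios were Igfbp3, Abcc9, Bgn, Col3a1, Ifitm1, Ecm1, Sod3, Hgf, Ccdc80, Col14a1, Slc1a2, Tagln, Pam and Prelp. At their head stood Igfbp3, a secreted carrier of insulin-like growth factors (chr11:7206086-7213923), with 69.2 against 38.0 CPM in AEG-1DMAC (log2 ratio 0.86, 0.68 to 1.05) and 82.5 against 44.9 CPM in AEG-1fl/fl (0.88, 0.71 to 1.04). Igfbp3 fell to 0.20 (-0.02 to 0.41) in AEG-1DMAC and 0.52 (0.33 to 0.69) in AEG-1fl/fl in spots chosen without Dcn. Bgn, the proteoglycan biglycan (chrX:73483602-73495933), had 139 against 75.9 CPM (0.87) and 131 against 79.1 CPM (0.72). Slc1a2, a glutamate transporter of hepatocytes around the central vein, had 187 against 122 CPM (0.62) and 88.6 against 55.4 CPM (0.68).

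**Figure D3:**
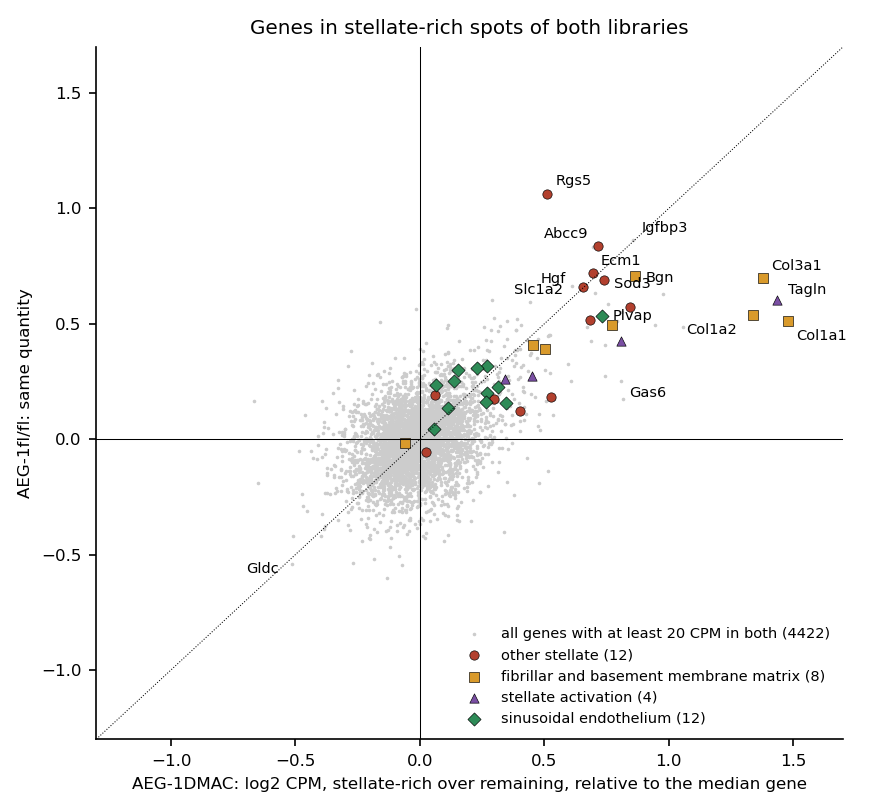
Log2 CPM ratio of members over remaining spots, relative to the median gene, in AEG-1DMAC (x axis) and AEG-1fl/fl (y axis), for genes with at least 20 CPM in both libraries, with 4 gene lists in colour and score genes left out. Most stellate and matrix genes lie in the upper right, where Igfbp3 (0.86 and 0.88) and Ecm1 (0.70 and 0.73) are close to the dotted line of equal ratios.

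Matrix genes formed the second group that was higher in members, with smaller ratios in spots chosen without Dcn. Of the 20 genes of fibrillar and basement membrane matrix, 14 of 16 testable genes were called higher in AEG-1DMAC and 14 of 17 in AEG-1fl/fl, against the 5.59% and 5.05% of all genes given above. Col3a1, a fibrillar collagen chain (chr1:45311538-45349706), had 142 CPM in members and 54.3 CPM in remaining spots of AEG-1DMAC (log2 ratio 1.38, 1.25 to 1.52), and 127 and 77.4 CPM in AEG-1fl/fl (0.71, 0.58 to 0.84). Col1a1, a chain of type I collagen (chr11:94936224-94953042), had 45.8 and 16.3 CPM in AEG-1DMAC (1.49, 1.25 to 1.72) and 29.4 and 20.5 CPM in AEG-1fl/fl (0.52, 0.24 to 0.80). Both chains were higher in members of both libraries, by a larger ratio in AEG-1DMAC. In spots chosen without Dcn, Col3a1 had 0.44 and 0.36 and Col1a1 0.16 and -0.04. Col5a2, a minor fibrillar chain present at 7.31 and 12.0 CPM in members, had nearly equal ratios, 0.67 in either library. In spots chosen without Dcn it had 0.11 (-0.60 to 0.75) in AEG-1DMAC and -0.22 (-0.81 to 0.32) in AEG-1fl/fl.

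Other matrix genes had closer ratios. The basement membrane collagen Col4a1 gave 0.51 and 0.40, the microfibrillar collagen Col6a1 1.13 and 1.03, the proteoglycan Lum 0.97 and 0.79 and the matricellular gene Sparc 0.78 and 0.51. Fn1, fibronectin, which hepatocytes secrete in bulk, did not differ by the call rule (-0.05 and 0.00) and made up much of the summed list, whose ratios were 0.22 and 0.21 while its median gene stood 0.82 and 0.54 above all genes. The summed list had 0.08 and 0.09 in spots chosen without Dcn. Among the genes of matrix turnover, 5 of 7 and 4 of 8 were called higher, against 5.59% and 5.05% of all genes. Summed, the turnover list differed by 0.54 and 0.37, and by 0.21 in both libraries in spots chosen without Dcn. Serpinh1, the collagen chaperone, had ratios of 1.04 and 0.56, the inhibitor Timp2 1.01 and 0.35, and the membrane protease Mmp14, not called, 0.08 and 0.09.

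Genes that mark activated stellate cells, and also smooth muscle, differed by library. In AEG-1DMAC 8 of 10 testable genes of the activation list were called higher (sum 0.79), and in AEG-1fl/fl 5 of 7 (0.40). Over all genes, the shares called higher were 5.59% and 5.05%. Tagln, an actin-binding protein of contractile cells (chr9:45929619-45936058), had 35.3 against 13.0 CPM in AEG-1DMAC (log2 ratio 1.44, 1.17 to 1.71) and 25.9 against 16.9 CPM in AEG-1fl/fl (0.62, 0.31 to 0.91). Acta2, alpha smooth muscle actin, had 22.7 against 6.55 CPM in AEG-1DMAC (1.79, 1.43 to 2.13). In AEG-1fl/fl it had 8.95 against 4.93 CPM (0.86, 0.33 to 1.36), under the level needed for a call. Ccn2, connective tissue growth factor, had 30.0 against 13.9 CPM in AEG-1DMAC (1.11) and 7.54 against 7.92 CPM in AEG-1fl/fl (-0.07).

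Signalling genes were mixed. Of 16 testable genes of TGF-beta and BMP signalling, 6 were called higher and 1 lower in AEG-1DMAC and 4 higher in AEG-1fl/fl. Over all genes, 5.59% and 5.05% were called higher and 2.3% and 2.89% lower. The ligand Bmp6 was called higher in both (0.42 and 0.65), whereas the receptor Tgfbr2 (0.41 and 0.05) and the ligand Tgfb1 (0.38 and 0.21) were called in AEG-1DMAC alone. Id2, a BMP target, was the lower call, at -0.35, and had -0.22 in AEG-1fl/fl. Pdgfrb, the platelet-derived growth factor receptor of mesenchymal cells, was below the minimum for a call, with 7.80 against 3.6 CPM and 9.66 against 5.47 CPM.

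The genes lower in members were few. The 8 named by the ranking were Gldc, Spata13, Rhobtb1, Atp5g1, Rhou, Tmem25, Cdh1 and Slc45a3, with log2 ratios from -0.53 to -0.30. Gldc, the glycine decarboxylase of the mitochondrial glycine cleavage system, had 41.2 against 58.5 CPM in AEG-1DMAC (-0.51, -0.74 to -0.28) and 46.9 against 67.6 CPM in AEG-1fl/fl (-0.53, -0.74 to -0.32). Cdh1, E-cadherin, which in liver is highest in hepatocytes near the portal tract, had -0.39 and -0.31. General hepatocyte genes such as albumin and transferrin differed by -0.01 in both libraries when summed.

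Members also held more RNA of other cells of the vessel wall and sinusoid. Among sinusoidal endothelial genes, 6 of 13 and 4 of 13 were called higher, against 5.59% and 5.05% of all genes. The summed list differed by 0.26 in both libraries. Plvap, a protein of endothelial diaphragms, had the ratios 0.74 and 0.55. Kupffer cell genes, which mark the resident macrophages, differed by 0.20 in AEG-1DMAC and 0.09 in AEG-1fl/fl. Of these, 1 of 9 and 0 of 9 were called, near the same shares of all genes. The MHC class II list holds genes that present antigen on dendritic cells, B cells and macrophages. All 5 of its genes were called higher in both libraries, against 2.04% of genes testable in both. Cd74, the invariant chain, had 602 against 459 CPM (0.39) and 314 against 242 CPM (0.38). Summed, the list differed by 0.40 and 0.43, and by 0.21 and 0.07 in spots chosen without Dcn. Without vessel-rich spots on either side the sums were 0.25 and 0.21, with 3 and 1 of the 5 genes called. T cell genes differed by 0.41 (0.09 to 0.72) and 0.48 (0.04 to 0.89), from 97 and 54 UMIs in members, and 0 of them were testable. B cell genes differed by 0.45 and 0.07, cholangiocyte genes by 0.41 and -0.14 and erythroid genes by -0.18 and -0.19. In spots chosen without Dcn, T cell genes had 0.27 (-0.06 to 0.59) and 0.14 (-0.33 to 0.59). There B cell genes had 0.40 and 0.20, cholangiocyte genes -0.28 and -0.50 and erythroid genes -0.28 and -0.23.

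As a second view of the same mixture, spots were also ranked by gene lists of other cells, of which each library's top 10% was taken. The sinusoidal endothelial list shared 22.0% of the AEG-1DMAC members and 22.8% of the AEG-1fl/fl members, against 8.67% and 8.57% of the remaining spots. The Kupffer list shared 16.8% and 12.2% (remaining 9.24% and 9.76%). The list of smooth muscle plus portal fibroblast genes shared 17.8% and 14.2% (9.14% and 9.54%), and cholangiocyte genes 11.7% and 7.87% (9.81% and 10.2%). In 47.7% and 54.7% of members none of these 4 scores was in its top 10%.

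Position along the lobule was read from an index of zone 3 genes (Cyp2e1, Cyp1a2, Oat) minus zone 1 genes (Pck1, Hal, Gls2, Cyp2f2, Hsd17b13, Arg1), cut into 3 bands with equal numbers of spots in each library. Zone 1 is the periportal end and zone 3 the pericentral end. Members lay more often in the zone 3 band: 89 of 214 (41.6%, 34.9% to 48.5%) in AEG-1DMAC and 116 of 254 (45.7%, 39.4% to 52.0%) in AEG-1fl/fl. The zone 1 band held 53 (24.8%) and 41 (16.1%). In spots chosen without Dcn the share in the zone 3 band of AEG-1DMAC was 33.2% (26.9% to 39.9%), near the 33.3% of equal bands. Landmarks outside the index ran the same way, with zone 3 landmarks at 0.22 and 0.32 and zone 1 landmarks at -0.17 and -0.15. Rspo3, the Wnt enhancer made by central vein endothelium, had 24.9 against 13.1 CPM in AEG-1DMAC (log2 ratio 0.92, 0.60 to 1.23) and 23.6 against 13.7 CPM in AEG-1fl/fl (0.78, 0.46 to 1.09). In spots chosen without Dcn Rspo3 had 0.38 and 0.55. Of the central vein endothelium list that holds it, 3 genes were higher and 2 lower in AEG-1DMAC relative to all genes. In AEG-1fl/fl 4 were higher and 0 lower. The median gene of that list stood 0.05 and 0.51 above all genes.

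Stellate genes were higher in members within every band. In the zone 1, middle and zone 3 bands the summed list had log2 ratios of 0.53, 0.61 and 0.48 in AEG-1DMAC and 0.59, 0.49 and 0.37 in AEG-1fl/fl. Ecm1 had 0.62, 0.68 and 0.68, and 0.67, 0.69 and 0.61. Smooth muscle genes had a steep order, from 1.56 over 1.21 to 0.05 in AEG-1DMAC and from 1.14 over 0.50 to 0.20 in AEG-1fl/fl. Portal fibroblast genes ran from 1.64 over 1.35 to 0.70 and from 1.29 over 0.99 to 0.58. The stellate list in AEG-1fl/fl ran in the same direction over a smaller range, from 0.59 (0.49 to 0.68) in the zone 1 band to 0.37 (0.31 to 0.43) in the zone 3 band.

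A few members carried a large share of the vessel wall RNA. Summed over the smooth muscle and portal fibroblast lists, the richest 5% of members, 11 spots in AEG-1DMAC and 13 in AEG-1fl/fl, held 59.1% and 47.0% of these UMIs, against 41.5% and 31.1% held by the richest 5% of remaining spots. Ranked by the other stellate list instead, the richest 5% of members held 9.77% and 9.74% of its UMIs. A single member held 138 of 1146 vessel wall UMIs (12.0%) in AEG-1DMAC and 77 of 638 (12.1%) in AEG-1fl/fl. Of Col1a1 UMIs the richest 5% of members held 60.6% and 47.2%, close to the 57.2% and 46.8% of remaining spots, and without the single richest member its ratio was 1.34 and 0.40. Acta2 was detected in 20 and 19 members, and Ecm1 in 99.1% and 95.3% of members.

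**Figure D4:**
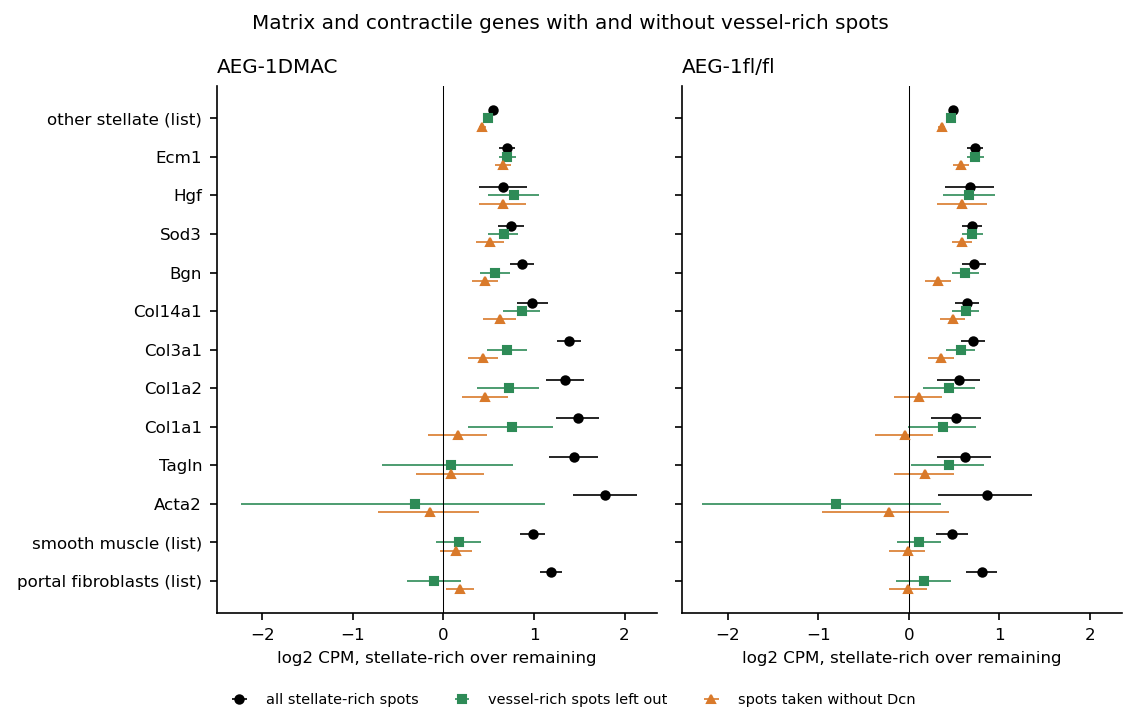
Log2 CPM ratio of members over remaining spots (x axis) for named genes and lists (y axis) in each library, for all members, with vessel-rich spots left out of both sides, and for members chosen without Dcn, with bars for 95% counting intervals. The other stellate list has 0.55 and 0.49 with all members and 0.49 and 0.47 without vessel-rich spots, and smooth muscle genes have 0.99 and 0.48, then 0.17 and 0.12.

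Vessel-rich spots, the top 10% of each library by smooth muscle plus portal fibroblast genes, were left out of members and remaining spots to see which ratios rest on them. This was chosen after the data had been seen, and it kept 176 and 218 members and 1750 and 2068 remaining spots. The other stellate list then differed by 0.49 and 0.47, Ecm1 by 0.71 and 0.74, Hgf by 0.78 and 0.67 and Sod3 by 0.66 and 0.70. Bgn had 0.57 and 0.62, and Col14a1, a fibril-associated collagen, 0.87 and 0.63. Col3a1 fell to 0.70 (0.48 to 0.92) in AEG-1DMAC from 1.38 and to 0.57 (0.41 to 0.73) in AEG-1fl/fl from 0.71. Col1a1 was 0.76 (0.27 to 1.21) and 0.38 (-0.00 to 0.74). Acta2 had 1.19 against 1.47 CPM and 1.62 against 2.84 CPM, log2 ratios of -0.31 (-2.24 to 1.13) and -0.81 (-2.28 to 0.36). The activation list was 0.13 and 0.20. The smooth muscle and portal fibroblast genes chose the spots left out, so their own change, to 0.17 and 0.12 and to -0.10 and 0.17, is fixed by that choice. Acta2, Tagln and Thy1 of the activation list are among these genes. The fall of Acta2 and a part of that of the activation list are therefore fixed in the same way. Calls higher in both libraries went from 136 to 76.

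Members differed among themselves in what the score was made of. Dcn UMIs exceeded those of Reln and Colec11 together in 79 of 214 members (36.9%) of AEG-1DMAC and 60 of 254 (23.6%) of AEG-1fl/fl. Of these Dcn-led members 24.1% and 28.3% were vessel-rich, against 14.1% and 9.79% of the others. Between Dcn-led and other members the other stellate list differed by 0.12 and 0.04 (log2), smooth muscle genes by 1.05 and 1.12 and portal fibroblast genes by 1.36 and 0.80. Dcn-led members were also more often in the zone 3 band, 50.6% against 36.3% and 60.0% against 41.2%. With members chosen on Reln and Colec11 alone, the other stellate list was 0.43 and 0.36 and the vessel wall lists summed to 0.17 and -0.01. The activation list was then 0.07 and 0.06 and Col1a1 0.16 and -0.04, while Ecm1 (0.66 and 0.58) and Hgf (0.66 and 0.59) kept most of their ratio.

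To compare detection at equal depth, each spot was thinned to 5000 UMIs, while the members stayed those of the unthinned score. Ecm1 was then detected in 74.8% of members against 58.5% of remaining spots in AEG-1DMAC and in 71.1% against 57.1% in AEG-1fl/fl (without thinning 99.1% against 93.5%, and 95.3% against 92.5%). Sod3 was detected in 42.5% against 28.6%, and 56.5% against 40.3%. Clec4f, a Kupffer cell gene, was detected in 59.8% of members and 59.8% of remaining spots in AEG-1DMAC, and in 59.3% and 59.1% in AEG-1fl/fl, and the cholangiocyte keratin Krt19 in 0.9% and 0.4%, and 0.4% and 0.4%. One AEG-1fl/fl member was shallower than 5000 UMIs and was left out of these shares. Membership itself changed when spots were thinned. When the score was taken after thinning, 91 of 213 chosen spots in AEG-1DMAC and 112 of 253 in AEG-1fl/fl were members of the main choice. The thinned score is a whole number of few UMIs, and ties were taken in file order. The parts of depth, of the sampling of UMIs and of ties were not told apart.

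For the comparison of genotypes, the targeted gene was looked at first. Mtdh had 70.7 CPM in AEG-1DMAC members and 62.0 CPM in AEG-1fl/fl members (log2 ratio 0.19, -0.06 to 0.44), and 65.9 against 60.1 CPM in remaining spots (0.13). Lyz2, whose promoter drives the Cre, had 3 and 8 UMIs in members, too few for a check of the deletion in the targeted cells. Mtdh in other cells of the spot was not separated from that of myeloid cells.

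AEG-1DMAC and AEG-1fl/fl members differed by at least 2-fold in 118 genes higher (1.67%) and 39 lower (0.553%) of 7055. In remaining spots the counts were 86 (1.24%) and 37 (0.535%) of 6912. Of the calls higher, 72 were shared, 61.0% of those in members and 83.7% of those in remaining spots, and of the calls lower 29 were shared (74.4% and 78.4%). The median gene was 0.14 higher in AEG-1DMAC members and 0.15 higher in remaining spots, and relative to these medians the members had 87 genes higher and 61 lower and remaining spots 64 and 53. The share of higher calls in members thus went from 75.2% to 58.8%. With the 50 genes of highest level left out of the CPM total, the median in members moved from 0.14 to 0.0086, and 122 genes were higher and 110 lower.

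The genes with the largest ratios between genotypes had nearly the same ratio outside the members. Gadd45g, a growth arrest gene, had 197 against 8.48 CPM (log2 ratio 4.54, 4.06 to 5.06) in members and 4.44 in remaining spots. Alas1, the first enzyme of haem synthesis, had 275 against 19.3 CPM (3.83), and the transcription factors Onecut1 and Foxq1 had 3.22 and 2.97. Phlda1 had 3.11 and Mup12 2.33, and Mup12 belongs to a family of nearly identical genes whose probes may not tell them apart. In the lower direction, Tff3, a secreted trefoil peptide, had 8.04 against 299.7 CPM (-5.22), and Depp1, Fabp5, Scd1 and Efna1 had -2.24, -2.05, -1.73 and -1.71. The ratios of these genes in remaining spots ran from -5.20 to 4.44 in a like order.

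Among stellate genes, the summed list had a genotype ratio of -0.20 (-0.25 to -0.15) in members and -0.25 in remaining spots. Its median gene was 0.07 in members, of the opposite sign to the sum, and -0.06 in remaining spots, and 18 of 25 genes lay below the all-gene median in members. Ecm1 (0.09), Hgf (0.13) and Lrat (0.21) were each within their counting interval of the all-gene median of 0.14. Sod3 (-0.70), Abcc9 (-0.80), Rgs5 (-0.97) and Kcnj8 (-1.34) were lower in AEG-1DMAC members, and of these Kcnj8 passed the 2-fold rule. Of 19 testable stellate genes 2 were called lower and 0 higher in members, against the 0.553% and 1.67% of all genes given above.

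**Figure D5:**
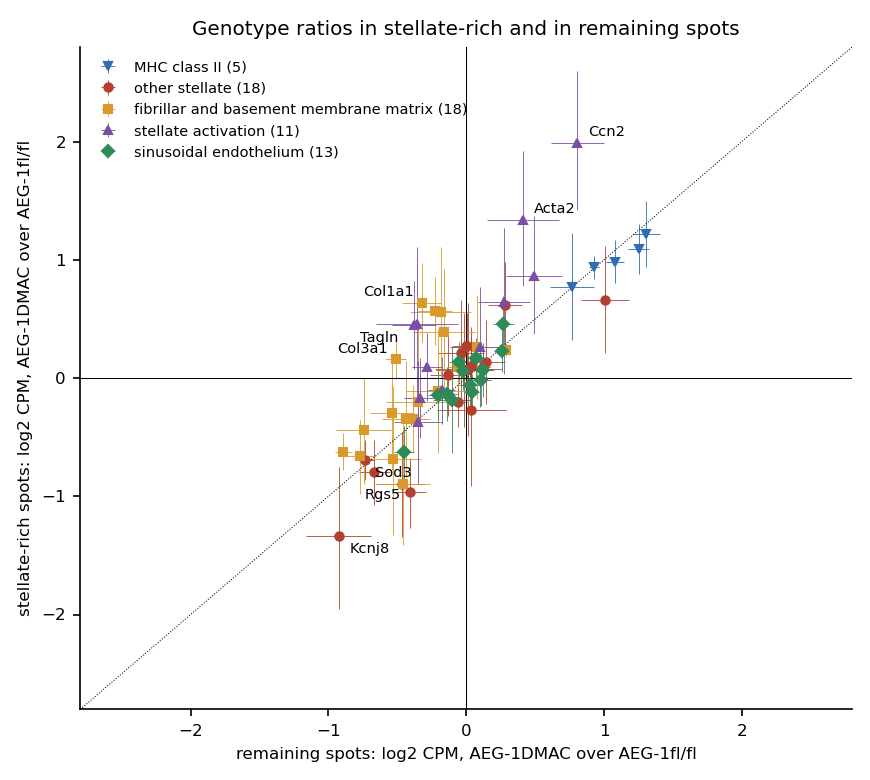
Log2 CPM ratio of AEG-1DMAC over AEG-1fl/fl in remaining spots (x axis) and in members (y axis) for the genes of 5 lists that are reported here and have a mean of at least 10 CPM, with bars for 95% counting intervals and a dotted line of equal ratios. Sod3 (-0.74 and -0.70) lies near the line, and Col3a1 lies above it, at -0.51 in remaining spots and 0.16 in members.

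Among gene groups, the MHC class II list was higher in AEG-1DMAC by 0.98 in members and 1.02 in remaining spots. H2-Eb1, a chain of the class II molecule, had 84.8 against 36.5 CPM (1.22) in members, and H2-Ab1 had 141 against 66.2 CPM (1.09). The matrix list summed to 0.10, but its median gene was -0.25, and 13 of 20 genes lay below the all-gene median in members and 19 of 20 in remaining spots. Smooth muscle genes were higher in AEG-1DMAC members by 0.75 and in remaining spots by 0.24, and portal fibroblast genes by 1.01 and 0.63. Vessel-rich spots made up 17.8% of the AEG-1DMAC members and 14.2% of the AEG-1fl/fl members. These same genes chose the vessel-rich spots, so the part of such spots in these ratios was not tested.

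The difference between the genotype ratio in members and that in remaining spots was described for 2169 genes with at least 50 CPM. Its interval lay above 0 for 78 genes (3.6%) and below 0 for 126 (5.81%). The 5 highest were Col3a1 (0.67, 0.49 to 0.86), Spp1 (0.65), Gas6 (0.55, but -0.019 in spots chosen without Dcn), Aldh1b1 (0.46) and 2900026A02Rik (0.38). Col3a1 had 142 against 127 CPM in members (0.16) and 54.3 against 77.4 CPM in remaining spots (-0.51). The 5 lowest were Rgs5 (-0.56, -0.87 to -0.25, but 0.12, -0.22 to 0.46, in spots chosen without Dcn), Rdh16 (-0.46), Plcxd2 (-0.45), Ndufab1 (-0.45) and Stard4 (-0.44). Below 50 CPM, Col1a1 (0.96), Tagln (0.83), Acta2 (0.93) and Ccn2 (1.18) lay on the same side as Col3a1. In spots chosen without Dcn, Col3a1 had 81.6 against 102 CPM between genotypes (-0.33, -0.53 to -0.12). The rest of the spots then had 60.2 against 79.6 CPM. Col1a1 had 0.02 (-0.41 to 0.46) in these chosen spots, Tagln -0.32 (-0.80 to 0.16) and Acta2 0.67 (-0.18 to 1.56). In the rest they had 18.8 against 21.3, 14.9 against 17.5 and 8.08 against 5.33 CPM.

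The differences of genotype ratios of Col3a1, Col1a1, Gas6 and Rgs5 were smaller in size without the vessel-rich spots on either side. The genotype ratio of Col3a1 was then -0.73 (-0.99 to -0.47) in members and -0.86 in remaining spots, in place of 0.16 and -0.51, so that the difference went from 0.67 to 0.13 (-0.14 to 0.40). For Col1a1 the ratios were -0.48 (-1.06 to 0.08) in members and -0.86 in remaining spots, a difference of 0.38 (-0.20 to 0.96) in place of 0.96, and for Col1a2 the difference was 0.27 (-0.17 to 0.71). The differences of Gas6 (0.30, -0.08 to 0.68) and Rgs5 (-0.20, -0.56 to 0.15) then also had intervals that held 0, whereas that of Spp1 was 0.66 (0.28 to 1.04). The median gene of the matrix list was -0.53 between genotypes in members, against 0.12 for all genes, and MHC class II stayed at 1.02. With 1 section per genotype, the number of vessels cut by the section and the genotype cannot be told apart.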

How the data were processed

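Liver sections of 1 AEG-1DMAC and 1 AEG-1fl/fl mouse were profiled by the authors with the probe-based Visium assay for fixed tissue. Per the submitters' processing notes they used Space Ranger 2.0.1, the mm10 build and Seurat 4.3.0. The deposited matrices hold raw counts of UMIs for 19465 genes per spot, with no normalisation, and 11 symbols occur more than once. Groups were taken from the genotype labels.

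Spots were filtered by the thresholds that the authors state, which removed 9 deposited spots in AEG-1DMAC and 3 in AEG-1fl/fl. The paper gives 2149 and 2543 spots after its filter, the same as the deposited numbers. UMIs were summed over members and over remaining spots and divided by the total (CPM). Ratios carry exact conditional binomial (Clopper-Pearson) 95% intervals. Differences of genotype ratios carry approximate 95% intervals from the Poisson counts of both ratios (delta method, a normal approximation). With 1 library per genotype no hypothesis test was run. The calculation was tested on simulated data. Named genes were the 14 highest and 8 lowest called on the same side in both libraries at 20 CPM or more, the 6 highest and 6 lowest between genotypes at 50 CPM or more, the 5 highest and 5 lowest differences of ratios, and genes of 27 lists. Members and lists were chosen with earlier results of these data known. Gene positions come from GENCODE M21 on GRCm38, the build called mm10. Alternatives changed the score, the share of spots, depth, scaling and call rules, and 1 of them, leaving out vessel-rich spots on both sides, was added after the data had been seen. Hba-a1, Glul and Cyp2a5 are not analysed here, and 1 gene that the naming rule picked is not reported here. Python 3.11.15, NumPy 2.4.6, SciPy 1.17.1 and pandas 2.3.3 were used.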

Additional observations from a re-analysis of the deposited data

How the results depend on the processing

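Log2 ratios of members over remaining spots are given as AEG-1DMAC, then AEG-1fl/fl. The other stellate list, at 0.55 and 0.49, stayed higher in members under every alternative run. It was 0.69 in AEG-1DMAC with the top 5%, 0.49 and 0.38 with the top 20%, 0.37 and 0.30 with the score taken after thinning to 5000 UMIs, 0.43 and 0.36 without Dcn, 0.45 in AEG-1fl/fl with Ecm1 added to the score and 0.44 without Reln. It was 0.47 and 0.49 in AEG-1DMAC without vessel-rich members and with vessel-rich spots left out on both sides. The smooth muscle plus portal fibroblast genes, at 1.10 and 0.64, depended most on the choice: 1.63 and 0.34 (top 5%), 0.84 and 0.38 (top 20%), 0.51 and 0.45 (thinned), 0.52 and 0.15 (Ecm1 added), 0.17 and -0.0069 (without Dcn), 1.24 and 0.45 (without Colec11), 1.25 and 0.76 (top 10% within each zone band), 0.055 and 0.14 (vessel-rich spots out on both sides), 1.23 in AEG-1DMAC without Reln and 1.39 there as a mean over spots. Leaving vessel-rich spots out of members alone gave -0.80 and -0.44, Tagln -1.20 and -0.060, Col1a1 -0.29 and -0.13 and Acta2 -2.47 and -1.60, a fall that this one-sided removal builds in, and differences of genotype ratios of -0.22 (Col3a1), -0.039 (Gas6), -0.16 (Col1a1) and -0.053 (Col1a2). With these spots out on both sides Acta2 was -0.31 (-2.24 to 1.13) and -0.81 (-2.28 to 0.36), a fall that the choice of these spots also builds in.

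Without Dcn, Col1a1 in AEG-1fl/fl was -0.044, Acta2 -0.14 and -0.22, and the differences of genotype ratios -0.019 (Gas6) and 0.12 (Rgs5). Acta2 in AEG-1fl/fl was -0.076 with the top 5% and -0.34 with Ecm1 added, and Cdh1 in AEG-1DMAC 0.047 after thinning. The zone 3 band held 33.2% of AEG-1DMAC members without Dcn and 49.1% without Colec11, and 33.3% in both libraries where members were chosen within bands, by construction. Genes called higher in both libraries, 136, became 52 (thinned), 37 (without Dcn), 69 and 76 (vessel-rich members out, both sides out), 27 (50 CPM) and 35 (1.5-fold). Calls lower, 15, became 24 (top 5%), 2 (thinned), 25 (Ecm1 added), 7 (without Reln), 32 (without Colec11), 7 (within bands), 24 (1 CPM), 3 (50 CPM) and 0 (1.5-fold). Between genotypes the 118 higher calls in members became 215 (top 5%), 305 (1 CPM), 36 (50 CPM) and 519 (1.5-fold), and the 39 lower calls became 198, 13 and 153 under the last 3 and 110 with CPM taken without the 50 highest genes. The genotype sum of the stellate list, -0.20, was -0.10 with the top 5% and -0.33 with those 50 genes out. Except for changes fixed by construction, the causes were not tested. No paired analysis was possible because each genotype had 1 library and replicate numbers carry no pairing.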
